A study of Homo sapiens with 6 samples.

Results

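The nuclear genes of oxidative phosphorylation were followed in CAL27, an established line of human tongue squamous carcinoma cells, with and without overexpression of RBM24, an RNA-binding protein known as a regulator of splicing in heart and skeletal muscle. Members were the protein-coding rows off the mitochondrial chromosome whose symbols match a pattern. For complex I this was NDUFA, NDUFB, NDUFC, NDUFS, NDUFV (subunits) or NDUFAF (assembly factors) followed by a number and nothing else. NDUFAB1 and NDUFA4L2 were thus left out. For complex II it was SDHA to SDHD. For the others it was any symbol that begins with UQCR (complex III), COX4 to COX8 (complex IV) or ATP5 (ATP synthase). This gave 92 genes of the 32353 in the count table: 36 subunits of complex I, 8 complex I assembly factors, 4 genes of complex II, 9 of complex III, 15 of complex IV (NDUFA4 is counted here, with the complex its protein is known to bind) and 20 of complex V. One group of 3 libraries came from CAL27 cells given a control plasmid, and the other group of 3 from CAL27 cells overexpressing RBM24. The labels name no other agent, dose or time and do not say how RBM24 was delivered. Nor do they say whether the libraries of a group came from separate cultures; p-values here cover the spread between samples, and that spread may be technical only.

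Oxidative phosphorylation is carried out in the inner mitochondrial membrane. Complexes I, III and IV pass electrons from NADH to oxygen and pump protons, complex II feeds electrons from succinate into the same chain, and complex V, the ATP synthase, uses the proton gradient to make ATP. Most subunits are encoded in the nucleus and imported, a small set is encoded by mitochondrial DNA, and assembly factors build the complexes without being part of them. Squamous carcinoma cells are known for strong glycolysis, and many of them still respire.

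The libraries held between 53558773 and 68804210 gene counts, and 17887 genes were left for testing once low counts were filtered out. RBM24 itself checked the labels: it stood at 2.35, 2.96 and 3.50 CPM (counts scaled to the library total, with TMM factors for library composition) in the control libraries and at 125, 109 and 124 in the RBM24 libraries, 5.34 apart on the log2 scale (SE 0.0995; adjusted p = 2.16e-15 in edgeR, Benjamini-Hochberg). All 7 squamous epithelial markers examined were detected, with summed levels of 1336 to 1355 CPM in the control and 1431 to 1471 in the RBM24 libraries. Markers of other cell types were low: those of fibroblasts summed to 13.4 to 16.6 and 16.3 to 17.0 CPM, those of immune cells to 1.16 to 1.63 and 1.26 to 1.48, and those of muscle to 0.410 to 0.450 and 0.677 to 0.859. Within these lists the counts were uneven: COL3A1, DCN, PTPRC and CD3E each held between 0 and 5 in every library, while COL1A1 held 540 to 803, PDGFRB 151 to 226, COL1A2 24 to 68 and CD68 49 to 83. Of the 9 muscle markers 5 had a row in the count table. ACTA1 held 6, 14 and 5 counts in the control and 28, 18 and 30 in the RBM24 libraries (edgeR adjusted p = 0.0919). TNNT2 held 9 to 25, and MYH7, CKM and DES 0 to 6. Squamous markers were uneven too. Over the 6 libraries KRT5 averaged 662 CPM and KRT14 4.27, the latter below COL1A1 at 11.1. Along the first principal component (33.0% of the variance) control library 1 stood at -33.4 and the other 5 libraries between -4.95 and 15.4, so the counts over the members are also given without it.

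No nuclear oxidative phosphorylation gene passed the test between the groups, and for most of them the difference was bounded within narrow limits. Of the 92 members, 89 were tested, and edgeR called 0 of them at an adjusted p under 0.05, against 1.54% of all tested genes (0.855% higher and 0.682% lower with RBM24). At an unadjusted p under 0.05 edgeR gave 9 members (10.1%), 1 higher and 8 lower, where all tested genes gave 13.0%. DESeq2 called 1 member, higher with RBM24, and limma-voom 0. The libraries of the groups did not overlap for 10 of the 89 members (11.2%), 2 higher and 8 lower with RBM24. Over all tested genes this share was 18.1% (9.53% higher and 8.62% lower).

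Most differences were measured closely. The standard error of the log2 fold change had a median of 0.064 over the members. The 95% interval of the fold change lay within 1.25-fold in either direction for 85 of the 89 members, and the exceptions were NDUFA7, COX6B2, UQCRHL and NDUFB5. Among the 83 members with a mean log2 CPM above 4 it did so for 82, compared with 94.6% of the 8283 tested genes above that level. Between libraries of 1 group the coefficient of variation of these 83 members had a median of 7.79% in the control and 5.26% in the RBM24 libraries.

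Small differences lay more often below 0 than above it. Of the 89 members 64 had a negative and 25 a positive log2 fold change (71.9% negative), with a median of -0.04. Over all tested genes 51.4% were negative, with a median of -0.0037. The split moved with single libraries: 50 members were negative without control library 1 (median -0.0066, 0 called) and 76 without control library 3 (median -0.10). With libraries scaled by total counts only, 52 were negative (median -0.0091), and on the deposited FPKM values 48 were. The median of all tested genes moved up under these scalings too. It was 0.0256 with total counts only and 0.027 on log2(FPKM + 0.1), where the members' median was -0.0059. The members' median thus stayed below that of all tested genes in both. In bulk RNA, a smaller share of cells that express these genes and less of their RNA per cell cannot be told apart.

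**Figure D1:**
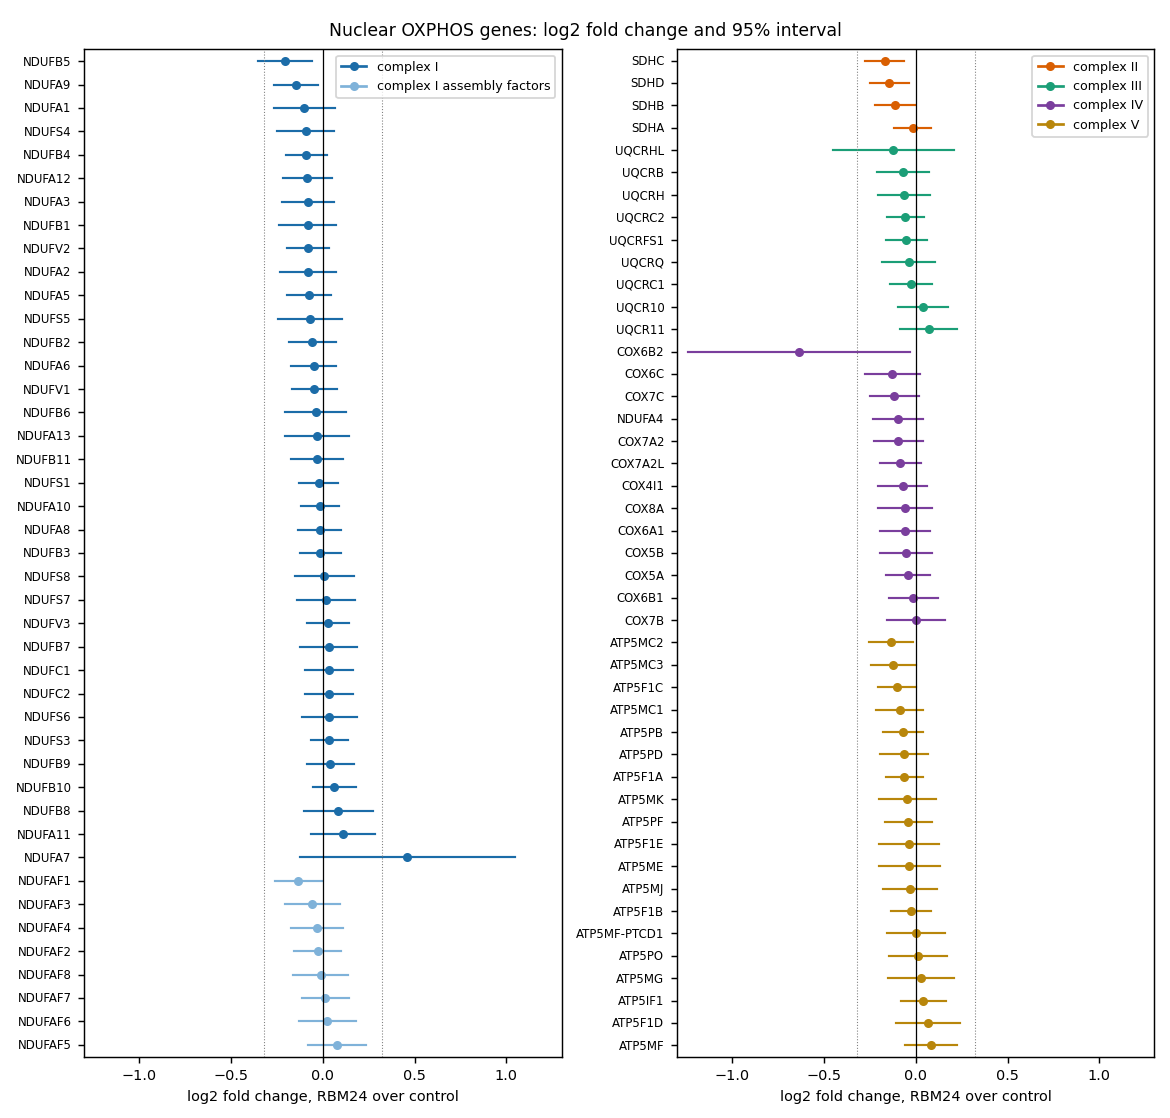
Log2 fold change, RBM24 over control, of 88 of the 89 tested members, grouped by complex and ordered within it; points are edgeR estimates, bars 95% intervals, and dotted lines mark 1.25-fold. All but 4 bars stay between the dotted lines, and the widest belong to NDUFA7, COX6B2 and UQCRHL, which have few counts.

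The members varied together from library to library, within both groups. Measured as the median deviation of the members from their own mean over the 6 libraries (log2 CPM), control libraries 1, 2 and 3 stood at 0.08, 0.05 and -0.09, and RBM24 libraries 1, 2 and 3 at 0.06, -0.03 and -0.09. Each group thus held libraries high and low in these genes, and the groups overlapped. Control library 1 was the highest library for 46 members, control library 2 for 22 and RBM24 library 1 for 17. Control library 3 was the lowest for 41 members and RBM24 library 3 for 32. Over all tested genes the same median lay between -0.0006 and 0.0046 in every library. TMM scaling keeps that median near 0, so it is no independent comparison for the members. Of the 17887 genes, 4149 were highest in control library 1, 3293 in control library 2 and 2772 in RBM24 library 1. Control library 3 was the lowest library for 2735 and RBM24 library 3 for 2885. The spread within groups (pooled SD 0.084) was larger than the difference between the group means, which were 0.016 in the control and -0.020 in the RBM24 libraries. Members whose principal transcript was at or under the median length of 958 bases had a pooled SD of 0.093 (45 members) and the longer ones of 0.059 (44 members).

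**Figure D2:**
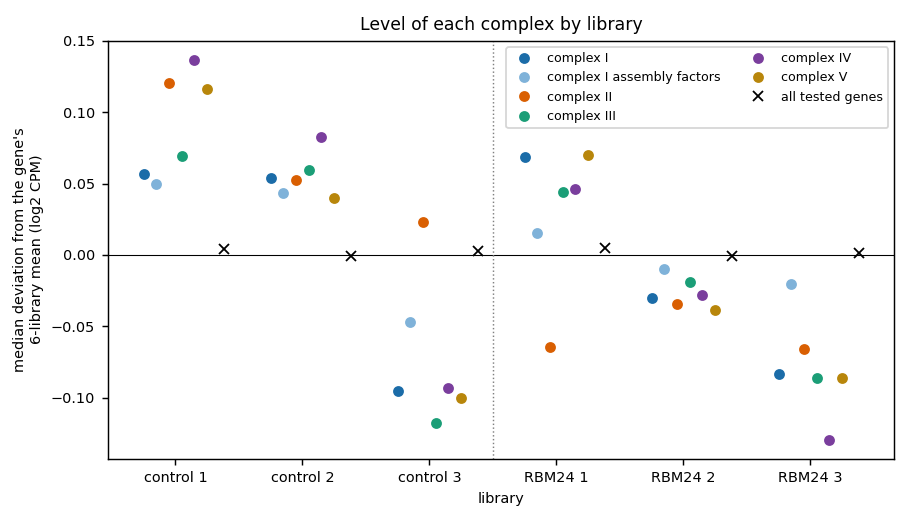
Median deviation of the genes of each complex from their 6-library mean (log2 CPM, vertical axis) in each library (horizontal axis); crosses show all tested genes. Control library 3 and RBM24 library 3 are low for complexes I, III, IV and V, control libraries 1 and 2 are high, and complex II separates by group.

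As a share of all counts the members made up 1.14%, 1.12% and 1.05% of the control libraries and 1.14%, 1.09% and 1.05% of the RBM24 libraries. The means were 1.10% ± 0.048 and 1.09% ± 0.043 (SD, n = 3 each), a difference smaller than the spread between libraries. The order of the libraries in this share followed the same pattern as the deviations, with library 3 lowest in each group.

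In complex I, which takes electrons from NADH, 22 of the 36 tested subunits were negative and 14 positive, with a median log2 fold change of -0.03. The 7 core subunits, which carry the flavin, the iron-sulfur clusters and the quinone site, split 4 positive to 3 negative, and the 29 accessory subunits 10 to 19.

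NDUFB5 (ENSG00000136521.13, chromosome 3, 179604690 to 179627647, plus strand), an accessory subunit of the membrane arm, had the smallest p among the complex I subunits lower with RBM24. It stood at 88.2, 73.8 and 69.8 CPM in the control and at 67.6, 68.7 and 64.5 in the RBM24 libraries. The groups did not overlap, but control library 1 stood well above the other control libraries, and its removal moved the log2 fold change from -0.21 (SE 0.070, edgeR adjusted p = 0.192) to -0.10. With no filter on low counts edgeR called it (adjusted p = 0.0185). NDUFA9, an accessory subunit that lies near the quinone site, was the other complex I subunit whose RBM24 libraries were all below the controls, at 61.8, 63.8 and 56.8 against 55.8, 56.0 and 52.9 CPM (log2 fold change -0.15, edgeR adjusted p = 0.257). The highest value, 0.46 for NDUFA7, rested on 18, 19 and 20 counts against 34, 20 and 31 (SE 0.276, edgeR adjusted p = 0.519). NDUFA7 shares 32.3% of its exon bases with a tested row on the same strand, CTD-2550O8.5, whose mean was 40.7 CPM against 0.432 for NDUFA7, so that its count depends on how shared reads were assigned.

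Of the 8 assembly factors of complex I in the NDUFAF series, 5 were negative and 3 positive (median -0.02). NDUFAF1, which acts early in building the membrane arm, stood at 25.0, 23.8 and 23.3 CPM in the control and at 22.3, 22.2 and 21.2 in the RBM24 libraries, with no overlap (log2 fold change -0.13, SE 0.061, edgeR adjusted p = 0.364). NDUFAF5, an enzyme that hydroxylates NDUFS7, had the smallest p among the positive ones and overlapped, with 14.8, 12.7 and 13.6 against 14.8, 14.1 and 14.4 CPM (0.08, edgeR adjusted p = 0.720).

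Complex II, succinate dehydrogenase, was the complex in which all tested members were negative, and its median of -0.13 was the lowest of the complexes. SDHC and SDHD, the anchors that hold the enzyme in the membrane, did not overlap between the groups. SDHC (ENSG00000143252.16, chromosome 1, 161314257 to 161375340, plus strand) stood at 89.5, 87.6 and 84.4 CPM in the control and at 76.3, 81.4 and 74.8 in the RBM24 libraries (log2 fold change -0.17, SE 0.051, edgeR adjusted p = 0.127). SDHD (ENSG00000204370.13, chromosome 11, 112086773 to 112120013, plus strand) stood at 63.6, 59.8 and 61.6 against 54.8, 56.4 and 56.2 CPM (-0.14, SE 0.050, edgeR adjusted p = 0.200). Among the catalytic subunits SDHB, which carries the iron-sulfur clusters, stood at 144, 138 and 128 against 129, 126 and 125 CPM, where control library 3 lay below RBM24 library 1 (-0.11, edgeR adjusted p = 0.373). SDHA, the flavoprotein, was the most even of them, at 217, 223 and 220 against 222, 218 and 213 CPM (-0.02, 95% interval -0.12 to 0.08). None of the 4 was called under any setting tried, and the smallest adjusted p was 0.0785, for SDHC. SDHA was positive under 4 of 17 other settings, whereas SDHB, SDHC and SDHD stayed negative under all of them. In the deviations by library given above, the median of complex II was 0.12, 0.05 and 0.02 in the control and -0.06, -0.03 and -0.07 in the RBM24 libraries, with no overlap, while in control library 3 the other complexes lay between -0.12 and -0.05.

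In complex III, which moves electrons from ubiquinol to cytochrome c, 7 of 9 members were negative (median -0.05) and the groups overlapped for all 9. UQCRC2, a core protein, stood at 206, 202 and 195 CPM in the control and at 190, 198 and 191 in the RBM24 libraries (log2 fold change -0.06, edgeR adjusted p = 0.673), the smallest p among the negative members. UQCR11, a small accessory subunit, stood at 28.6, 33.2 and 26.9 against 31.7, 31.4 and 29.9 CPM (0.07, edgeR adjusted p = 0.749), the smallest among the positive ones. UQCRH, the acidic hinge protein, and its intronless copy UQCRHL stood at 206 ± 21.9 and 2.19 ± 0.350 CPM in the control and at 197 ± 9.24 and 2.00 ± 0.334 in the RBM24 libraries (SD, n = 3 each). Their sequences are near-identical, so reads of UQCRHL may belong to UQCRH.

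In complex IV, cytochrome c oxidase, 12 of 13 tested members were negative, with a median of -0.07, and only COX7B was at 0.00. The forms found in most tissues were those expressed: COX4I1 stood at 385 ± 26.6 CPM in the control and 366 ± 26.2 in the RBM24 libraries, COX6A1 at 226 ± 19.2 and 217 ± 14.1, COX6B1 at 190 ± 12.0 and 189 ± 15.8, COX7A2 at 183 ± 14.6 and 171 ± 11.1, and COX8A at 333 ± 25.9 and 319 ± 28.8 (SD, n = 3 each). All 5 overlapped between the groups, with log2 fold changes from -0.09 (COX7A2) to -0.01 (COX6B1). NDUFA4, first described as a complex I subunit, stood at 237 ± 21.3 and 222 ± 12.9 CPM (-0.10, edgeR adjusted p = 0.558). COX7A2L, which joins complexes III and IV into supercomplexes, stood at 97.7 ± 6.02 and 92.1 ± 2.04 CPM (-0.09, edgeR adjusted p = 0.530).

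The testis forms of complex IV subunits were near the limit of detection. COX6B2 had 21, 24 and 29 counts in the control and 20, 15 and 16 in the RBM24 libraries, which as CPM did not overlap (0.382, 0.446 and 0.461 against 0.290, 0.277 and 0.260 CPM). Its log2 fold change of -0.64 had the widest interval of the members, -1.24 to -0.03, and an adjusted p of 0.349 in edgeR. COX7B2 had 0, 2 and 0 counts in the control and 0 in each RBM24 library, and COX8C had 0, 1 and 1 against 3, 1 and 1; neither passed the filter. COX4I2, COX6A2 and COX7A1, the lung and muscle forms, were looked for and had no protein-coding row in the count table.

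In complex V, 14 of 19 tested members were negative and 5 positive (median -0.04). The 3 genes that encode the same c-ring subunit, through which protons pass, were all negative. ATP5MC1 stood at 130, 138 and 121 CPM in the control and at 130, 124 and 113 in the RBM24 libraries (log2 fold change -0.09, edgeR adjusted p = 0.587). ATP5MC2 stood at 168, 181 and 162 against 162, 158 and 146 CPM (-0.13, 0.311), and ATP5MC3 at 250, 231 and 213 against 218, 214 and 206 CPM (-0.12, 0.397). The groups overlapped in each of these genes, and the 3 kept a negative sign under every setting tried, but single libraries moved their size: ATP5MC1 was at -0.04 when control library 2 was left out, at -0.03 when RBM24 library 3 was, and at -0.13 when control library 3 or RBM24 library 1 was. ATP5MC2 was at -0.09 without control library 2, and ATP5MC3 at -0.06 without control library 1. Their mature proteins are identical and the transcripts differ, so all 3 genes supply the same ring.

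Among the catalytic F1 head genes, ATP5F1C, the central stalk subunit gamma (ENSG00000165629.20, chromosome 10, 7788129 to 7807815, plus strand), stood at 105, 99.2 and 96.5 CPM in the control and at 93.7, 92.1 and 93.9 in the RBM24 libraries. ATP5F1A, subunit alpha, stood at 332, 328 and 314 against 314, 307 and 312 CPM. Neither overlapped, with log2 fold changes of -0.10 and -0.06 (edgeR adjusted p = 0.384 and 0.649). ATP5F1B, subunit beta and the catalytic one, was even, at 764, 806 and 759 against 765, 758 and 765 CPM (-0.03, 95% interval -0.14 to 0.09). ATP5IF1, the inhibitor of ATP hydrolysis, stood at 119, 122 and 110 against 130, 117 and 115 CPM (0.04, edgeR adjusted p = 0.816). ATP5MF, a membrane subunit, had the smallest p on the positive side, at 100, 111 and 95.8 against 120, 105 and 101 CPM (0.08, edgeR adjusted p = 0.650). ATP5MGL, with 1, 1 and 0 counts in the control and 3, 3 and 4 in the RBM24 libraries, was not tested.

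**Figure D3:**
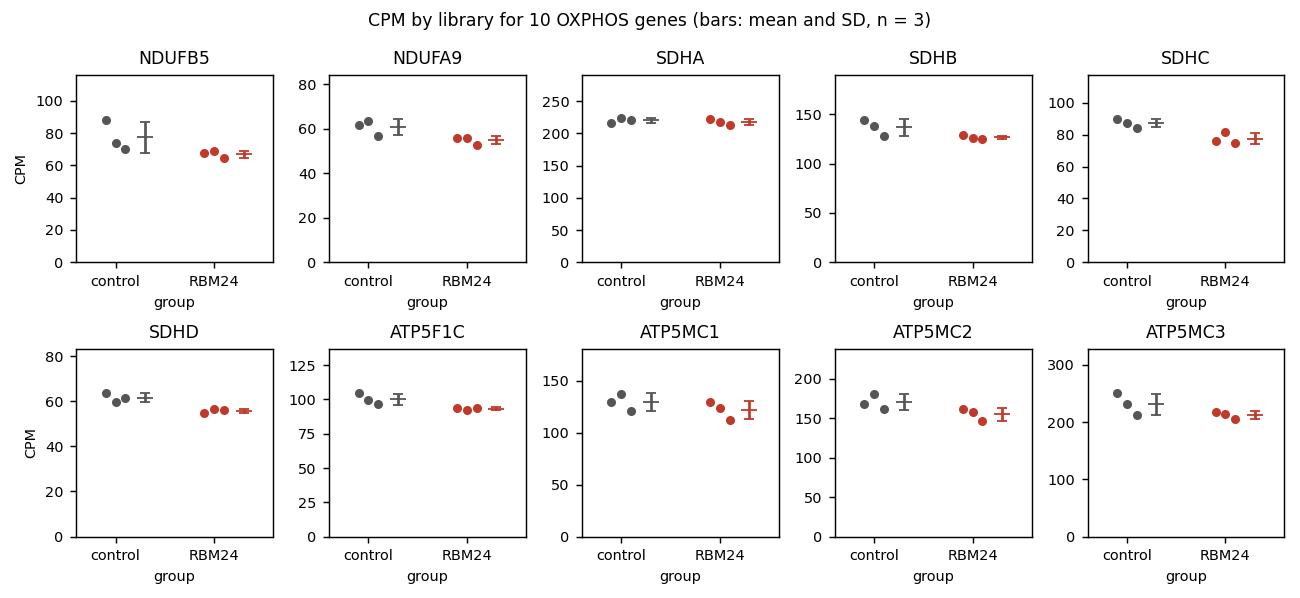
CPM (vertical axes, from 0) in each library of the control and RBM24 groups for 10 members; points are libraries and bars the mean and SD (n = 3). NDUFB5, NDUFA9, SDHC, SDHD and ATP5F1C separate by group, while SDHA, SDHB and the c-ring genes overlap.

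Levels between genes were compared per length, on the deposited FPKM values averaged over the 6 libraries. The median was 77.5 FPKM in complex IV, 47.8 in complex V, 31.5 in complex II, 29.9 in complex III and 23.5 in complex I, and 5.70 for the complex I assembly factors. The highest member of each was COX8A at 616 ± 35.4 FPKM in the control and 604 ± 51.0 in the RBM24 libraries, ATP5F1B at 317 ± 10.1 and 319 ± 2.32, NDUFS5 at 268 ± 32.6 and 261 ± 18.8, UQCRH at 140 ± 11.9 and 137 ± 5.58, and SDHB at 53.8 ± 2.14 and 50.9 ± 0.436 (SD, n = 3 each). Control and RBM24 means of COX8A, ATP5F1B, NDUFS5 and UQCRH differed by less than either SD. The lowest were COX6B2 at 0.088 FPKM, NDUFA7 at 0.262, UQCRHL at 0.885, NDUFAF5 at 1.82, ATP5MF-PTCD1 at 9.03 and SDHD at 19.5. NDUFA7, UQCRHL and ATP5MF-PTCD1 share sequence with other rows, so these values may not give the true level of the genes. NDUFAF8 was the highest of the assembly factors at 36.6 FPKM.

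The order depended on the length used. The length implied by counts and FPKM was a median of 2.57 times that of the median principal transcript in GENCODE 29 over 86 members. The range ran from 0.151 (SDHC) to 25.2 (NDUFB9). In the median the implied length was close to the union of all exons (ratio 1.08). It was not in every member: SDHC had 2054 implied against 14160 union bases, and NDUFB9 17911 against 4106. Per kilobase of principal transcript, a scale added after the data were seen, complexes IV and V had medians of 187 and 186 CPM per kilobase, complex I 76.1, complex II 66.2, complex III 52.2 and the assembly factors 12.3. The assembly factors were lowest on both scales. Of the 10 highest members by FPKM, 5 were among the 10 highest on this scale: COX8A, ATP5F1B, COX6A1, UQCRH and NDUFS5.

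**Figure D4:**
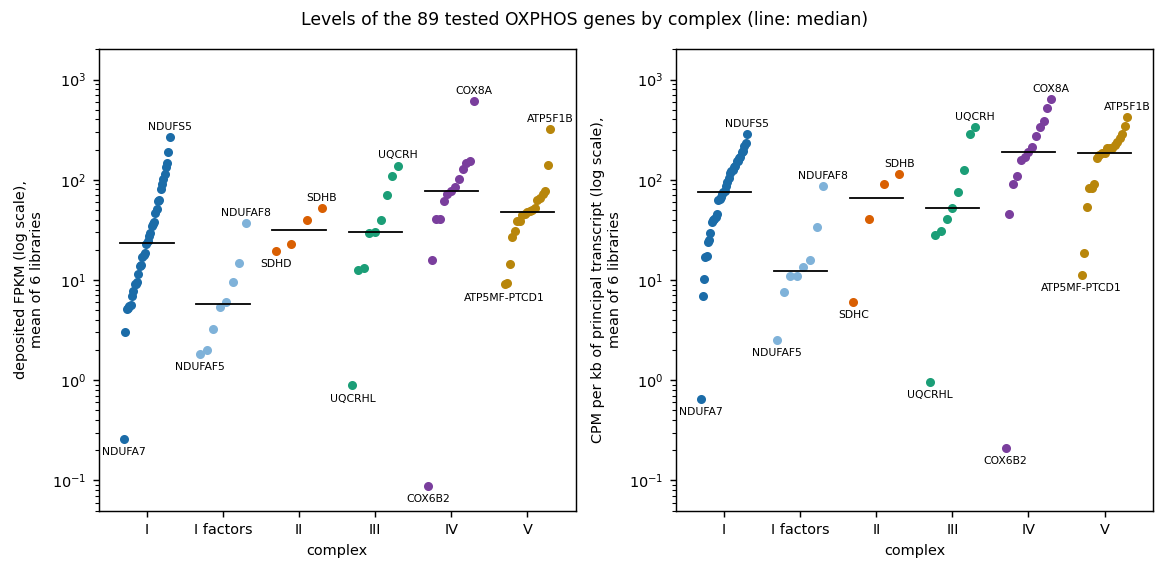
Mean level over 6 libraries of the 89 tested members by complex (I factors are the complex I assembly factors), as deposited FPKM (left) and as CPM per kilobase of principal transcript (right), on log axes; lines are medians. Complex IV and V medians are highest and assembly factors lowest on both scales, with COX6B2, NDUFA7 and UQCRHL far below the rest. The values of NDUFA7 and UQCRHL may depend on how shared reads were assigned.

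The promoters of these genes are known for sites of NRF1 and of ETS factors such as GABP, which control nuclear genes of mitochondria. The members' promoters were searched for both. Whether these sites relate to the variation between libraries was not tested. RefSeq (GRCh38.p14) gave a promoter for 75 of the 92 members, from 250 bases before to 50 after the first listed start. The NRF1 letters GCATGCGC, searched on both strands, were in 15 of the 75 (20.0%), against 4.26% of 15843 protein-coding promoters of the same length. The ETS letters CCGGAAG, also on both strands, were in 21 (28.0%), against 14.2%. The protein-coding promoters were not matched to the members for expression. By complex, the NRF1 letters ranged from 0 of 7 promoters (complex III) to 2 of 3 (complex II). The 6 elements of genes whose values are given above are printed on the gene's strand, 5′ to 3′, with the NRF1 letters in capitals. Where a run of 10 capitals stands, the matches on both strands overlap.
ATP5F1C (chr10:7788145-7788174, plus): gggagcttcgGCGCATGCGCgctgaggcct
NDUFAF5 (chr20:13785014-13785043, plus): agccgcgctgGCGCATGCGCacaaaaagcg
ATP5MC2 (chr12:53676105-53676134, minus): gcccgggtcacGCATGCGCtgagccttcct
COX6A1 (chr12:120437884-120437913, plus): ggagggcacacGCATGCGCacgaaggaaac
SDHD (chr11:112086753-112086782, plus): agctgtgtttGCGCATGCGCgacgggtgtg
SDHB (chr1:17054214-17054243, minus): aagccaaatggGCATGCGCcgctactgcgc

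Fold changes and levels with and without these letters are given as a description, with no test. The 15 tested members with GCATGCGC had a median log2 fold change of -0.05 and the 58 without it -0.04, and for CCGGAAG both medians were -0.04. The median level was 62.3 FPKM with GCATGCGC against 30.2 without, and 66.4 with CCGGAAG against 29.7 without. Of the 6 genes printed, SDHD and ATP5F1C were lower in every RBM24 library than in any control, while NDUFAF5 was on the positive side. Over all tested genes 8.62% were lower without overlap. NDUFAF5 was named for its p on the positive side, and ATP5F1C after its values were seen. The directions of the printed genes therefore say nothing about the letters.

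Genes that work with the members were read from lists. The 13 subunits encoded by mitochondrial DNA, which is transcribed as long shared transcripts, included 12 with a negative log2 fold change (median -0.14), and 9 (69.2%) did not overlap between the groups, all lower with RBM24, against 8.62% of all tested genes. None was called by edgeR, 7 (53.8%) had an unadjusted p under 0.05, against 13.0% of all tested genes, and DESeq2 called MT-CO1 and MT-CYB. MT-ATP8, a subunit of complex V, stood at 1823 ± 57.9 CPM in the control and 1600 ± 127 in the RBM24 libraries (SD, n = 3 each; -0.19, edgeR adjusted p = 0.198), and MT-CO1, the catalytic subunit of complex IV, at 14545 ± 838 and 12732 ± 534 (-0.19, 0.218). The replicate block also called MT-CO1. These 13 genes took 7.33%, 7.99% and 7.67% of the counts of the control libraries and 6.88%, 7.37% and 7.10% of those of the RBM24 libraries, so the shares overlapped. Their median deviation by library did not overlap, at 0.02, 0.13 and 0.03 in the control and -0.10, -0.02 and -0.05 in the RBM24 libraries. Control library 3 was at -0.09 in the nuclear members and at 0.03 in the mitochondrial genes. Copies of mitochondrial sequence in the nucleus can share reads with these genes.

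None of the other lists held a gene called by edgeR. Of the subunits and carriers outside the symbol pattern, CYCS, the electron carrier cytochrome c, stood at 591 ± 52.1 and 540 ± 10.2 CPM (SD, n = 3 each; -0.13, edgeR adjusted p = 0.391), and NDUFA4L2, a paralog of NDUFA4, at under 1 CPM. Further assembly factors of complex I gave 9 of 11 negative (median -0.03), with COA1 at -0.14 (edgeR adjusted p = 0.218) and TMEM126A at -0.16 (0.299). Those of complex II gave 4 of 4, of complex III 3 of 6, of complex IV 19 of 24 and of complex V 4 of 5. COX19, a copper-handling factor of complex IV, was on the positive side (0.16, edgeR adjusted p = 0.185), COX18 was at -0.14 (0.379), and TMEM242 of the complex V list at -0.15 (0.326). In the tricarboxylic acid cycle, which supplies NADH and succinate, 8 of 13 were negative, with SUCLG2 lowest in p (-0.15, edgeR adjusted p = 0.293).

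Among the regulators of mitochondrial biogenesis 7 of 12 tested were negative (median -0.05). NRF1, the factor of the motif above, stood at 18.6, 16.3 and 17.4 CPM in the control and 19.9, 19.7 and 19.9 in the RBM24 libraries, with no overlap (0.19, SE 0.066, edgeR adjusted p = 0.219). TFB1M, which modifies mitochondrial ribosomal RNA, was at -0.15 (edgeR adjusted p = 0.310). PPARGC1A, the coactivator of this program in muscle and liver, had 4, 0 and 0 counts in the control and 0 in each RBM24 library and was not tested. At unadjusted p under 0.05 edgeR gave 2 of the 12 regulators, 2 of the 11 further factors of complex I, 2 of 24 of complex IV, 2 of 5 of complex V and 1 of 13 of the cycle, and 0 in the other lists of assembly factors and carriers, where all tested genes gave 13.0%; limma-voom called none of the genes in any list.

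The symbols of some members stand for rows that share sequence with others. On the same strand, 8 tested members overlap a tested row with a higher level: NDUFA7, NDUFA11, NDUFB8, NDUFC2, UQCR11, ATP5MG, ATP5PO and ATP5MF-PTCD1. ATP5MGL, which was not tested, lies within the span of CYB5R3 on the same strand and shares no exon bases with it. The read-through row ATP5MF-PTCD1 shares 83.3% of its exon bases with PTCD1 and 6.19% with ATP5MF. Their values depend on how the counter shared reads, and rows on the opposite strand were not examined. A further 36 rows carry symbols of the same pattern without being protein-coding, 35 of them pseudogenes. Of these 2 were tested and 0 called by edgeR, and the highest count in any library was 87, for UQCRFS1P1.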

How the data were processed

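The data are 6 RNA-seq libraries of total RNA from CAL27. HISAT2 and GRCh38 are named in the submitters' processing notes; the aligner's version, the gene counter, annotation, kit and strandedness are not given in the sources used here. For this series the authors deposited raw counts per gene and, in a second table, FPKM (scaled by gene length and library size) rounded to 2 decimals; the library size behind them differs from the summed counts. The NC columns were taken as control libraries.

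Counts were filtered (filterByExpr), scaled (TMM) and tested with edgeR 4.0.16 quasi-likelihood in R 4.3.3, group alone, with 4 residual degrees of freedom, adjusting over all 17887 genes and calling at 0.05. TMM factors lay between 0.976 and 1.02. CPM uses the scaled totals, except in the marker sums. No library was a copy of another (chi-square per gene 4.20 to 30.1). Libraries overlap unless all of one group lie above the other. Coordinates, overlaps and lengths come from GENCODE 29, which holds all 92 identifiers. The scripts were tested on simulated counts. Alternatives used DESeq2 1.42.0, limma 3.58.1 (voom, and log2 of FPKM plus 1 or 0.1), other scalings and filters, the replicate block, each library left out and an adjusted p under 0.01. Python 3.11.15, pandas 2.3.3 and matplotlib 3.10.9 made tables and figures.

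The members and lists were chosen with earlier results of these data known. Named members are those called, the smallest p in each direction and the extreme FPKM of each complex, untested members and a panel of isoforms, c-ring, complex II and inhibitor genes; each list gives up to 2 genes with the smallest p. Other named members (NDUFA9, ATP5F1A, and ATP5F1C) were chosen after their values were seen. A member that the rule names is not reported here.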

Additional observations from a re-analysis of the deposited data

How the results depend on the processing

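Over all genes edgeR called 275. The count was 646 with no filter on low counts, 50 with limma on log2(FPKM + 1), 62 on log2(FPKM + 0.1), 19 on log2(FPKM + 1) over the whole FPKM table, and 85 at an adjusted p under 0.01; leaving out each library gave 90 to 328. Calls split 153 higher to 122 lower (55.6% higher), 223 to 106 (67.8%) with total counts only, 305 to 341 with no filter, 46 to 4 with limma on log2(FPKM + 1), 57 to 5 on log2(FPKM + 0.1), 15 to 4 over the whole FPKM table, 59 to 26 at an adjusted p under 0.01, 130 to 198 (39.6%) without control library 3 and 109 to 139 without RBM24 library 3. Of the members 0 were called, 1 with total counts only, 1 with DESeq2, 2 with no filter, and 0 to 1 with a library left out (1 without control library 2). Genes of the lists were called 0 times, 2 with DESeq2, 1 with the replicate block and 0 to 0 with a library left out. The replicate block gave 293 genes and 0 members; deviations of same-numbered libraries correlated at 0.0072, 0.0555 and -0.0004, so the numbers were not taken to pair samples. The members' median stayed negative under all settings, from -0.0958 (without control library 3) to -0.0055. Of the 31 named and tested members, 20 kept their sign throughout and 11 did not, and 2 were called under any setting. Low counts limit COX6B2, NDUFA7 and UQCRHL. For NDUFA7 and UQCRHL the counts may also depend on how reads shared with other rows were assigned.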
